A study of Lemna gibba and Lemna japonica and Spirodela polyrhiza with 12 samples.

Results

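Small RNA loci that lie on a single strand of a nuclear chromosome and have no call for a read size of 21 to 24 nt were described in 4 duckweeds, small floating plants of the family Lemnaceae. A locus was taken when the deposited lists gave it a plus or minus strand, no size call and no microRNA hairpin, and placed it on a numbered chromosome. This rule left 10894 of 79572 loci: 2461 of 10022 in Lg7742a, 3646 of 26073 in Lj8627, 2456 of 6315 in Sp9509 and 2331 of 37162 in Wa8730. The loci were chosen by strand and size call, so both are given below as a description and not as findings.

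The material was whole fronds of Lemna gibba (Lg7742a), Lemna japonica (Lj8627), Spirodela polyrhiza (Sp9509) and Wolffia australiana (Wa8730), each grown in sterile culture on a medium with sucrose and with no treatment named. Each species was represented by a single accession with 3 biological replicates, 12 libraries in all. The authors pooled the replicates of an accession into a single list, so the lists carry no spread between replicates and accessions are compared without a test. The lists held between 5005362 reads in loci, in Lg7742a, and 7197515, in Sp9509.

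In plants, Dicer-like enzymes cut double-stranded RNA into pieces of 21 to 24 nt, and the size depends in part on which enzyme made them. RNA from a single strand with other sizes can have many sources, among them breakdown of abundant structural RNAs such as ribosomal and transfer RNA. Genes for ribosomal RNA are known in plants to lie in repeated arrays of the same orientation. No genome sequence or gene annotation was used here, so no locus was placed in a gene, exon or intron or given an RNA class, and no sequence is shown.

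The loci were similar in number in 3 of the accessions, but they made up very different parts of the lists. They formed 38.9% of all loci in Sp9509 (95% Wilson interval 37.7 to 40.1), 24.6% in Lg7742a (23.7 to 25.4), 13.98% in Lj8627 (13.6 to 14.4) and 6.27% in Wa8730 (6.03 to 6.52). The order changed with the minimum depth. The lowest count taken was 3 reads in both Lemna accessions, 4 in Wa8730 and 5 in Sp9509. With a common minimum of 10 reads for every locus the shares were 35.3% in Lg7742a, 35.2% in Sp9509, 22.6% in Lj8627 and 5.33% in Wa8730, so that Sp9509 no longer stood above Lg7742a. By reads the accessions lay closer together. The loci held 674062 reads or 9.37% of reads in loci in Sp9509, and 421473 reads or 8.42% in Lg7742a. In Wa8730 they held 311866 reads or 5.52%, and in Lj8627 270586 reads or 5.02%. Intervals on these read shares were narrow, 8.40 to 8.44% for Lg7742a and 9.34 to 9.39% for Sp9509, and cover counting error only.

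Most reads in each list belonged to microRNA hairpins. Among reads in nuclear loci outside hairpins, the loci without size call held 42.4% in Lg7742a, 31.6% in Sp9509, 25.3% in Lj8627 and 23.6% in Wa8730. Per Mb of chromosome up to the last listed locus, there were 17.8 such loci in Sp9509, 6.63 in Wa8730, 5.08 in Lg7742a and 4.85 in Lj8627. The density in Sp9509 thus went with the shortest spanned sequence, 138 Mb, against 351 Mb in Wa8730, 485 Mb in Lg7742a and 752 Mb in Lj8627.

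**Figure D1:**
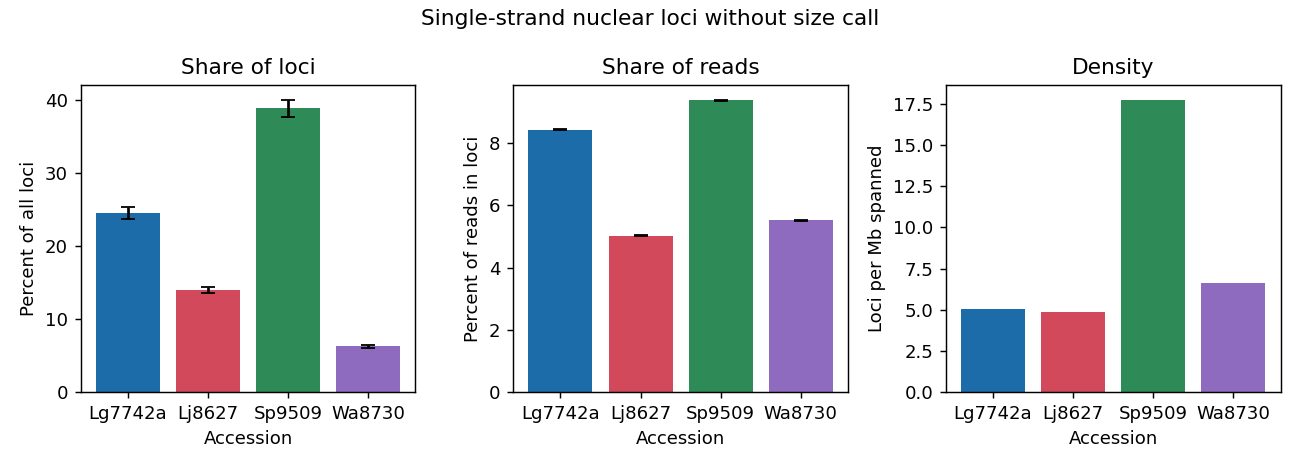
Single-strand nuclear loci without size call in each accession, as percent of all loci, percent of reads in loci, and loci per Mb spanned. Error bars are 95% Wilson intervals for counting error; the third panel has none. Sp9509 is highest in each panel, at 38.9%, 9.37% and 17.8 per Mb; with at least 10 reads per locus its share of loci, 35.2%, is level with the 35.3% of Lg7742a.

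Both strands were used in near equal numbers of loci, while reads leaned to the minus strand in 3 accessions. Plus-strand loci made up 50.5% of the loci in Sp9509, 51.8% in Lg7742a, 52.7% in Lj8627 and 53.4% in Wa8730. Of the reads, the plus strand held 34.0% in Sp9509, 37.3% in Wa8730, 44.4% in Lj8627 and 49.5% in Lg7742a. Of the 10 loci with most reads, 8 were on the minus strand in Sp9509 and likewise in Wa8730, compared with 6 in Lj8627 and 5 in Lg7742a. Without these 10 loci the plus strand held 55.0% of the reads in Sp9509, 55.8% in Wa8730, 48.3% in Lj8627 and 39.3% in Lg7742a, so the direction turned in Sp9509 and Wa8730. A set of 10 loci thus decides which strand has more reads there.

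Since classes differed in depth, strand was also read at a matched minimum of reads. Of nuclear no-call loci with at least 100 reads, 91.6% had a single strand in Sp9509, 96.1% in Lg7742a, 96.5% in Lj8627 and also 96.5% in Wa8730. Of the 21 nt loci outside hairpins at the same minimum, 39.8% had a single strand in Sp9509, 45.9% in Wa8730, 63.3% in Lg7742a and 65.6% in Lj8627. Few 24 nt loci were as deep in the Lemna accessions, where 18 of 19 in Lg7742a and 4 of 5 in Lj8627 had a single strand, against 12.04% of those in Sp9509 and 1.15% in Wa8730. High single-strand shares among deep loci were therefore shared with the 24 nt class in Lg7742a, within wide intervals (75.4 to 99.1%). In Wa8730 the share among no-call loci was 55.8% in the whole list and 59.4% at 10 reads, and only 13 of its 1846 two-strand loci without size call reached 100 reads. The single-strand loci also held nearly all reads of nuclear loci without size call: 98.0% in Lg7742a, 95.5% in Sp9509, 94.99% in Lj8627 and 91.9% in Wa8730.

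Listed lengths had a peak that was the same in all 4 accessions. The most frequent length was 418 bp, shared by 338 loci in Sp9509, 312 in Lj8627, 235 in Wa8730 and 247 in Lg7742a. It was not particular to single-strand loci. Two-strand nuclear loci without size call had the same most frequent length, with 51 loci in Sp9509, 104 in Lj8627, 101 in Wa8730 and 49 in Lg7742a. Among single-strand loci with a size call, the most frequent length was 421 bp for the 21 nt class, 422 bp for the 22 nt class, 423 bp for the 23 nt class and 424 bp for the 24 nt class, in every accession. The listed length therefore exceeded the class size by 400 bp at each of these peaks. With the same 400 bp taken off, the peak of the no-call loci stands at 18 nt.

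Lengths of 418 to 420 bp took 30.05% of the no-call loci in Sp9509, 25.8% in Wa8730, 23.8% in Lg7742a and 21.7% in Lj8627. A smaller peak lay at 425 bp, with 215 loci in Sp9509, 200 in Lj8627, 152 in Wa8730 and 163 in Lg7742a. Lengths of 421 to 424 bp, which match the called sizes, took 15.5% in Sp9509, 15.1% in Lg7742a, 14.8% in Lj8627 and 13.04% in Wa8730. Since a call of 21 to 24 nt kept a locus out of the class, these peaks on both sides of that range follow in part from the rule. The median length was 422 or 423 bp in each accession, and 73.6% of the loci in Sp9509, 68.3% in Wa8730, 67.6% in Lj8627 as well as 65.5% in Lg7742a were at most 430 bp long.

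**Figure D2:**
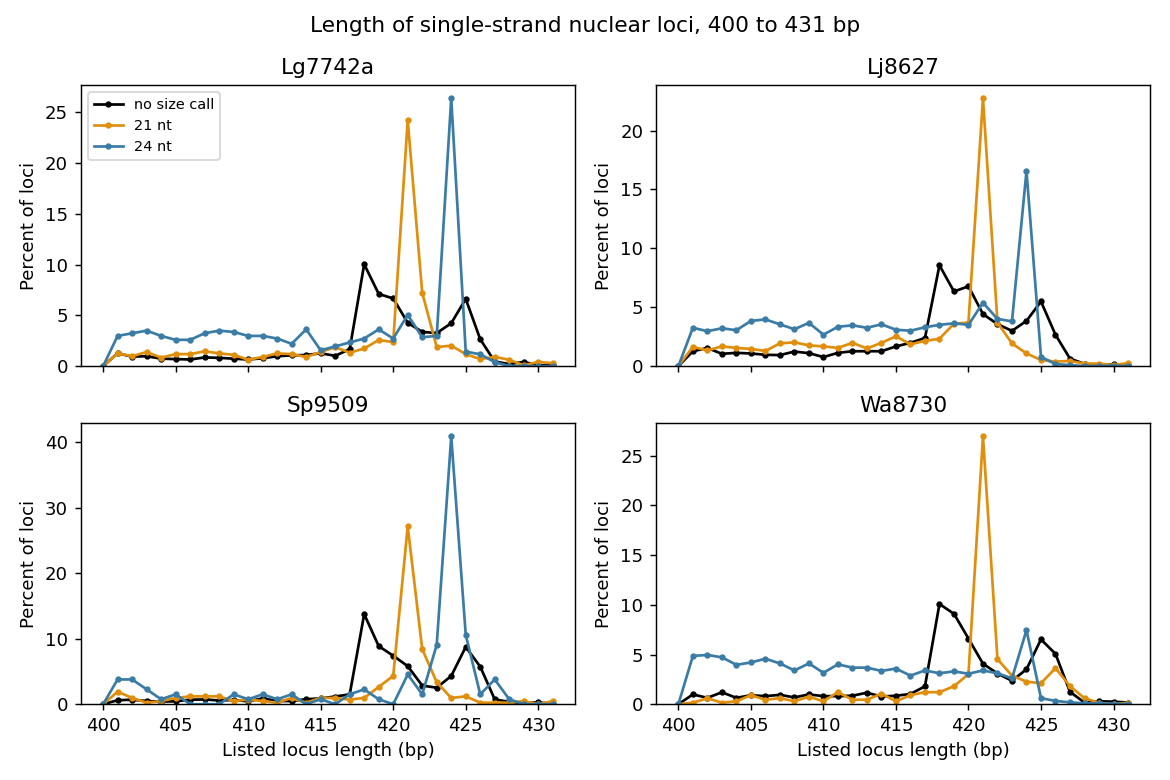
Listed length of single-strand nuclear loci from 400 to 431 bp, as percent of the loci of each class, for loci without size call and for the 21 and 24 nt classes in each accession. Loci without size call peak at 418 bp and again at 425 bp, while the 21 and 24 nt classes peak at 421 and 424 bp. Two-strand loci without size call, not drawn, also have their most frequent length at 418 bp.

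Long loci were few and held a large part of the reads. Loci over 600 bp numbered 471 in Lj8627 and held 53.8% of the reads there. Lg7742a had 391 of them with 54.3% of the reads, Wa8730 273 with 49.0% and Sp9509 269 with 40.2%. The 34 loci over 2000 bp in Lg7742a held 32.5% of the reads, the 16 in Wa8730 30.98%, the 22 in Lj8627 27.2% and the 10 in Sp9509 20.6%. The longest were 8952 bp in Sp9509, on chromosome 20 from 3965134 to 3974085 with 7376 reads, and 8879 bp in Lj8627, on chromosome 14T from 2841880 to 2850758 with 5130 reads. The longest in Wa8730 had 8816 bp and was also its deepest. In Lg7742a it had 7554 bp and 1990 reads, on chromosome 4 from 3053997 to 3061550.

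Reads were concentrated in very few loci. The median locus had 17.5 reads in Sp9509 against a mean of 274, and 15 in Wa8730 against a mean of 134. In Lg7742a the median was 9 and the mean 171, in Lj8627 8 and 74.2. A share of 50% of the reads came from the 11 deepest loci in Sp9509, 12 in Lg7742a, 20 in Wa8730 and 47 in Lj8627. The 10 deepest held 48.7% in Sp9509, 46.5% in Lg7742a, 39.8% in Wa8730 and 31.2% in Lj8627. At the other end, loci with fewer than 10 reads were 51.0% of the loci in Lg7742a and 56.3% in Lj8627 and held 1.55% and 3.90% of the reads. In Sp9509 and Wa8730 such loci were 25.9% and 33.8%, with 0.661% and 1.67% of the reads. Concentration was not particular to no-call loci. In the single-strand 21 nt class, which has fewer loci, the 10 deepest held 80.1% in Sp9509, 58.6% in Lg7742a, 61.8% in Wa8730 and 68.5% in Lj8627. The 22 and 23 nt classes also lay above the no-call loci in every accession. The 24 nt class lay above them in Sp9509 (62.8%) and Lg7742a (73.2%) and below in Wa8730 (10.8%) and Lj8627 (13.5%).

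**Figure D3:**
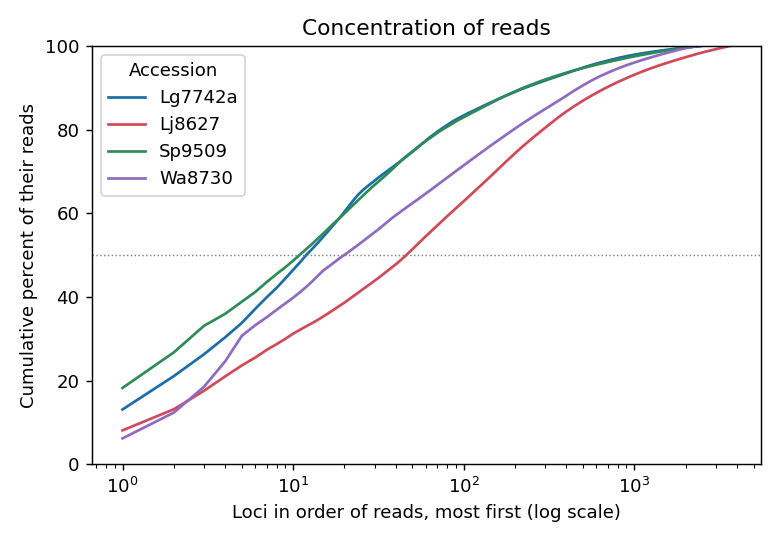
Cumulative percent of the reads of single-strand no-call loci, with loci ranked from most to fewest reads on a log scale. The dotted line marks 50% of reads, which is reached after 11 loci in Sp9509, 12 in Lg7742a, 20 in Wa8730 and 47 in Lj8627.

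The deepest locus of all was in Sp9509, on the minus strand of chromosome 1 from 11544592 to 11546605, with 123021 reads. It held 18.3% of the reads of these loci and 1.71% of all reads in loci. Next came 57383 reads on chromosome 8 from 4865313 to 4866100 and 42586 reads on chromosome 9 from 4709094 to 4709605, both on the minus strand. Loci of 496 bp on chromosome 5, from 4608578 to 4609073, and of 498 bp on chromosome 1, from 7534793 to 7535290, held 19536 and 19243 reads on the plus strand. Unlike the first, 8 of the 10 deepest loci of Sp9509 were no longer than 600 bp.

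Deep loci were longer than shallow ones, and some of them had similar lengths. The median length of loci with at least 1000 reads was 665 bp in Lg7742a, 597 bp in Wa8730, 595 bp in Lj8627 and 516 bp in Sp9509, against 418 or 419 bp for loci with fewer than 10 reads. Of the 73 loci of Sp9509 with at least 1000 reads, 28 or 38.4% were between 460 and 520 bp long, a range chosen after the values were seen. Among loci with fewer reads, 7.43% were in this range. The shares were 28.2% of 39 deep loci against 10.4% in Lj8627, 22.6% of 62 against 9.55% in Lg7742a, and 22.5% of 40 against 11.8% in Wa8730. These shares do not compare loci of like depth, and the part of depth in them was not tested.

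In Lg7742a the deepest locus lay on the plus strand of chromosome 4 from 72301 to 76655, near the chromosome's start, with 55217 reads or 13.1% of the reads of these loci. A short locus of 436 bp followed, on the minus strand of chromosome 16 from 1933433 to 1933868, with 33632 reads. The third, with 21908 reads, lay on the plus strand of chromosome 11 from 11283703 to 11286923. Further deep loci lay on the plus strand of chromosome 3, from 25047033 to 25049440 with 17235 reads, and on the minus strand of chromosome 12, from 3029210 to 3029800 with 14371 reads.

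The locus on chromosome 11 of Lg7742a did not stand alone. From its start it was 13065 bp to the start of a locus of 2421 bp with 11578 reads, and from there 10090 bp to the start of a locus of 3510 bp with 2224 reads, both also on the plus strand. These 3 loci, singled out after their values were seen, held 91.6% of the reads of no-call single-strand loci on that chromosome.

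In Lj8627, 4 of the 5 deepest loci were on chromosome 17T. They lay on the minus strand from 5995313 to 5999834 with 21922 reads and from 7448930 to 7452023 with 7031, and on the plus strand from 7492829 to 7494706 with 9376 reads and from 7496828 to 7499922 with 11904. Together they held 96.8% of the reads of these loci on chromosome 17T and 18.6% of those of the accession, although that chromosome carried only 26 of the 3646 loci. The locus ending at 7452023 and the one starting at 7496828 were 3094 and 3095 bp long and faced opposite ways. The remaining deep locus was on the minus strand of chromosome 2M, from 10986998 to 10993184, with 13676 reads.

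The deepest loci of Wa8730 were evenly spaced and nearly equal in reads. The first 4 lay one after another on the minus strand of chromosome 14: from 9385357 to 9393228 with 19120 reads, from 9401352 to 9409272 with 19269, from 9417310 to 9426125 with 19280 and from 9433249 to 9440439 with 19137. The lowest of these counts was 99.2% of the highest, and the 4 loci held 24.6% of the reads of no-call single-strand loci in Wa8730. The fifth locus in line was shorter, from 9449076 to 9452944 with 8044 reads. Starts were 15995, 15958, 15939 and 15827 bp apart. The handling of reads that match several places (not given in the sources used here) was not tested, so the near equal counts cannot be read as equal output of the 4 loci.

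Between these 5 loci lay 19 others with 420 reads in all. They included 12 loci of 24 nt, 4 more single-strand loci without size call, 2 two-strand loci without size call and 1 locus of 22 nt. The only other locus among the 5 deepest of Wa8730 was on the minus strand of chromosome 9, from 358538 to 359042, with 18865 reads in 505 bp.

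Apart from depth, the loci formed dense runs in a single orientation. Across 100 kb windows the average was 1.78 loci in Sp9509, 0.663 in Wa8730, 0.508 in Lg7742a and 0.485 in Lj8627. Of the windows that held any, 37.9% in Sp9509, 65.1% in Wa8730, 70.3% in Lj8627 as well as 70.8% in Lg7742a held only 1. The fullest window held 92 loci in Lg7742a, 63 in Wa8730, 43 in Lj8627 and 25 in Sp9509. In each of these windows at least 96% of the loci shared a strand.

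The fullest window of Lg7742a was on chromosome 13, where 92 loci followed each other on the minus strand from 20226794 to 20285052 with no locus of another class between them. They held between 4 and 154 reads, with a median of 29. Starts were 510 bp apart in the median, and 68 of 91 spacings were within 3% of 509 bp. A further 12 spacings were close to 2 or 3 times that length. Most loci were short, with a median length of 423 bp. Despite their number they held 0.765% of the reads of no-call single-strand loci.

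Lj8627 also had its longest run on a chromosome numbered 13, in the T set. There 43 loci lay on the plus strand of chromosome 13T from 19331786 to 19364571, again without any other locus between them. Reads per locus were 11 to 38 with a median of 23, and their variance was 1.30 times their mean. The common spacing was 688 bp, met within 3% by 27 of 42 spacings. On chromosome 13M no 100 kb window held more than 5 of its 89 loci. Whether chromosome 13 of Lg7742a and chromosome 13T of Lj8627 correspond was not tested.

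In Wa8730 a run of 63 loci on the plus strand of chromosome 8, from 5126663 to 5189125, was even in both depth and spacing. Every locus held between 85 and 126 reads, with a median of 103 and a variance over mean of 0.904. Starts were never closer than 903 bp or farther apart than 1093 bp, and 40 of 62 spacings were within 3% of 1000 bp. The run contained no other locus. As for the loci of chromosome 14, the handling of reads that match several places was not tested, so the even counts here and on chromosome 13T of Lj8627 cannot be read as equal output of each locus. The run alone made up 2.70% of the loci, with 2.12% of their reads.

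A second run on chromosome 8 of Wa8730, of 16 loci on the minus strand from 4893414 to 4922718, had another spacing. Of its 15 spacings, 11 were within 3% of 1094 bp and 3 near 2 or 3 times that. Its median was 9.5 reads per locus. The first locus, starting at 4893414, held 464 of the 615 reads and lay apart, with 10318 bp to the next start. The 15 loci from 4903732 on held 151 reads. On chromosome 7, 9 loci on the plus strand from 1647357 to 1656370 were 954 bp apart in 7 of 8 spacings, with 5 to 16 reads each. These runs of fewer loci, and those of Sp9509 on chromosome 13, were singled out after their values were seen.

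Runs were shorter in Sp9509. The longest had 24 loci on the minus strand of chromosome 6, from 2865649 to 2891559, with 19 to 86 reads each. Only 8 of its 23 spacings were within 3% of 1005.5 bp, and 5 were within 3% of 0.5 times that length. On chromosome 13 runs of 9 and 11 loci on the minus strand lay from 4728443 to 4745299 and from 4747688 to 4761011. The runs were counted apart because the plus strand was used between them. Their 100 kb window held 20 minus and 4 plus loci, or 83.3% on one strand, below the 90% set for a dense window. In the second run 9 of 10 spacings were within 3% of 1174 bp, and in the first the common spacing was 1179.5 bp, met by 4 of 8. Reads per locus were 19 to 40 in the first run and 23 to 43 in the second.

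**Figure D4:**
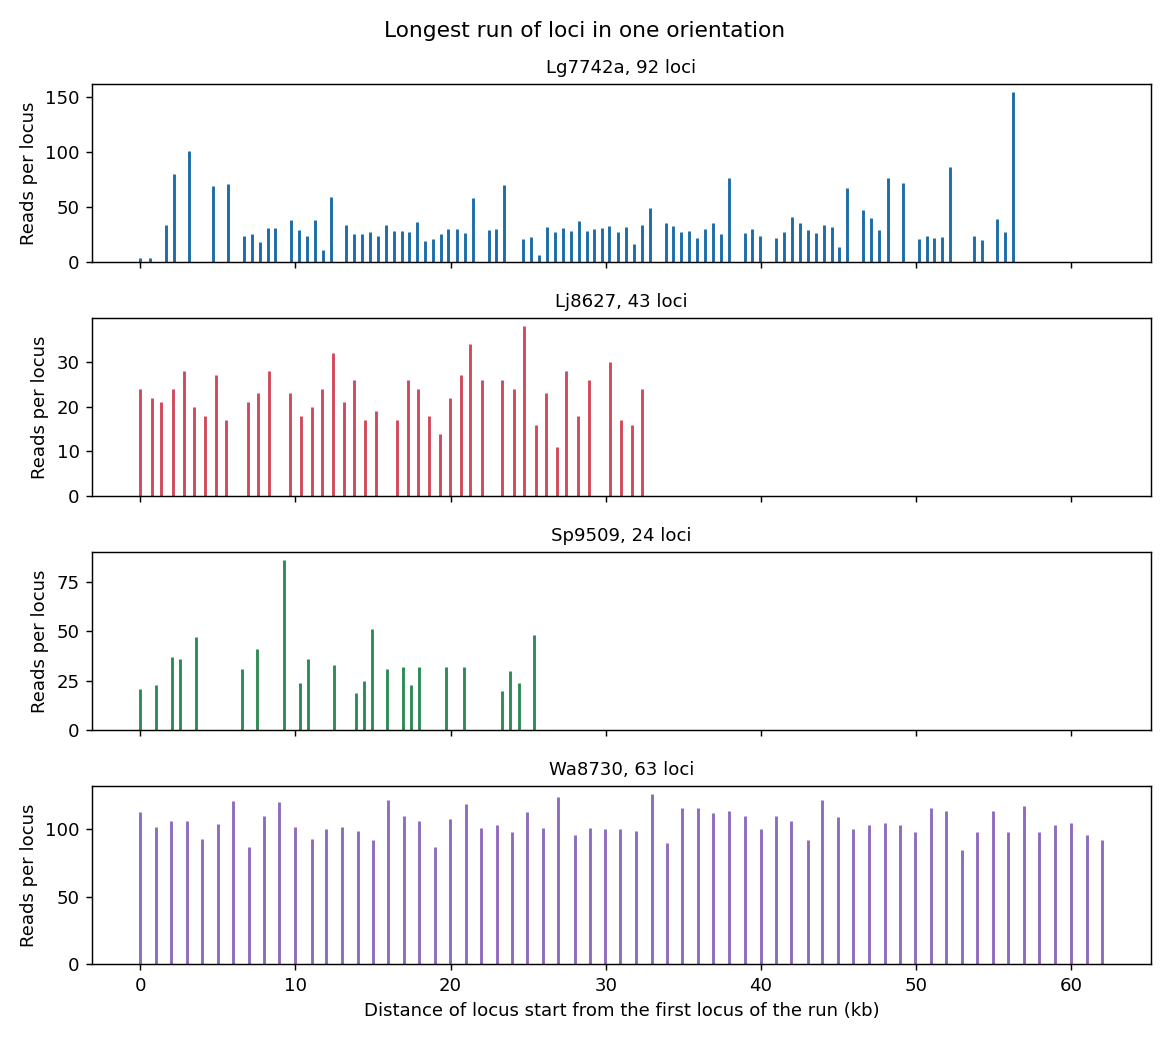
Reads of each locus in the longest run in one orientation of each accession, against the distance of its start from the first locus of the run in kb. Each line is a locus; the 63 loci of Wa8730 are nearly evenly spaced and even in height, from 85 to 126 reads.

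Windows with 10 or more loci, at least 90% of them on the same strand, numbered 2 each in Lg7742a and Wa8730 and 1 each in Lj8627 and Sp9509. They held 4.19% of the loci in Lg7742a (95% interval 3.46 to 5.05), 3.35% in Wa8730 (2.69 to 4.16), 1.18% in Lj8627 (0.877 to 1.58) and 1.02% in Sp9509 (0.690 to 1.498). Apart from the runs above, they included a window on chromosome 7 of Lg7742a, from 5200001 to 5300000, with 10 of 11 loci on the minus strand. Other full windows mixed the strands: the second fullest of Lg7742a, on chromosome 2 from 3800001 to 3900000, had 10 loci on the plus and 12 on the minus strand. In Wa8730, 7 of 9 windows with at least 10 loci were mixed, such as that on chromosome 6 from 10200001 to 10300000 with 8 plus and 10 minus loci.

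Counted without windows, chains of at least 5 loci on a single strand with gaps under 10 kb took in 7.34% of the loci in Wa8730, 5.20% in Lg7742a, 4.32% in Sp9509 and 2.25% in Lj8627. Such chains numbered 17 in Wa8730, 14 in Sp9509, 7 in Lg7742a and 8 in Lj8627. Chains held 30.8% of the reads in Wa8730, where the deep loci of chromosome 14 are among them, but 1.53% in Lg7742a, 1.54% in Sp9509 and 0.961% in Lj8627. Without the longest chain of each accession the shares of loci were 4.76% in Wa8730, 3.37% in Sp9509, 1.52% in Lg7742a and 1.08% in Lj8627.

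Shared orientation was not limited to the longest run of each accession. The shorter runs were kept in all pairs counted here. When neighbouring loci were under 1 kb apart, both lay on the same strand in 93.9% of 314 pairs in Lj8627 (95% interval 90.7 to 96.1) and 92.8% of 319 in Lg7742a (89.4 to 95.1). The values were 91.6% of 239 pairs in Sp9509 (87.4 to 94.5) and 87.5% of 295 in Wa8730 (83.2 to 90.8). Without the longest run of each accession they were 93.0% in Lj8627, 91.0% in Sp9509, 84.1% in Wa8730 and 89.9% in Lg7742a. The sharing fell off with distance. From 1 to 10 kb it was 69.7% in Lj8627, 63.3% in Wa8730, 62.6% in Sp9509 and 56.4% in Lg7742a, and from 10 to 100 kb it lay between 48.7% in Wa8730 and 53.8% in Lg7742a.

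Single-strand 21 nt loci, set beside them, were rarely so close. Those under 1 kb apart shared a strand in 24 of 25 pairs in Sp9509, 57 of 63 in Lj8627, 30 of 35 in Lg7742a and 20 of 28 in Wa8730. Their intervals overlapped those of the no-call loci in all 4 accessions, as with 52.9 to 84.7% in Wa8730, and pairs are not independent of each other, so no difference between these classes was read under 1 kb. At 1 to 10 kb the 21 nt loci shared a strand more often than the no-call loci in each accession, with 78.1% against 62.6% in Sp9509, 77.4% against 63.3% in Wa8730, 76.0% against 69.7% in Lj8627 and 72.3% against 56.4% in Lg7742a. Intervals did not overlap in Lg7742a, where the 21 nt loci spanned 62.6 to 80.4% and the no-call loci 49.98 to 62.5%, and overlapped in the other accessions. Single-strand 24 nt loci under 1 kb apart shared a strand in 22 of 35 pairs in Wa8730 (46.3 to 76.8%), 21 of 30 in Lj8627 (52.1 to 83.3%), 3 of 8 in Lg7742a (13.7 to 69.4%) and 1 of 1 in Sp9509. Their intervals lay below those of the no-call loci in Wa8730, Lj8627 and Lg7742a. Pairs of this class were few and are not independent either, so the intervals are no test of a difference.

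**Figure D5:**
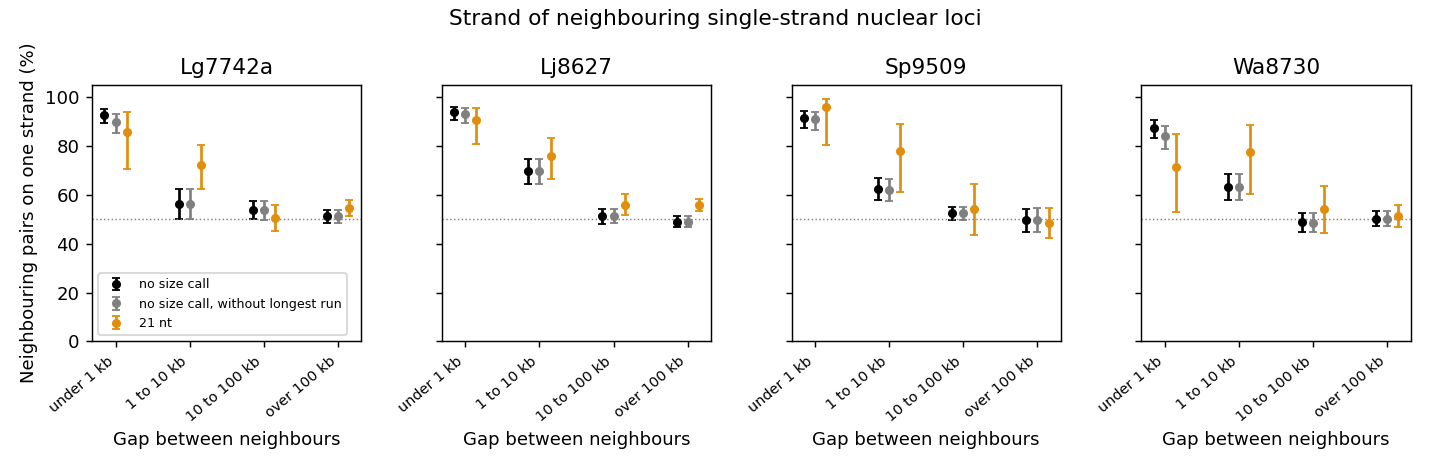
Percent of neighbouring pairs of single-strand nuclear loci that lie on the same strand, by the gap between them, for loci without size call, for the same loci without the longest run, and for 21 nt loci. Error bars are 95% Wilson intervals and the dotted line marks 50%; values start at 84.1% to 93.9% for no-call loci under 1 kb apart and lie between 48.6% and 53.8% beyond 10 kb.

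Loci of other classes were rarely close by. The nearest other nuclear locus was within 1 kb of 12.4% of the no-call single-strand loci in Wa8730, 7.98% in Lj8627, 7.64% in Lg7742a and 6.03% in Sp9509. Its median distance was 8049 bp in Wa8730, 13166.5 bp in Lj8627, 19033.5 bp in Sp9509 and 20266 bp in Lg7742a. In Wa8730 that nearest locus was of 24 nt for 68.4% of them, although 24 nt loci were 86.5% of the other nuclear loci there. It was of 21 nt for 11.03%, against 4.04% of the other loci. In Lg7742a the nearest loci were close to the makeup of the list, with 39.3% of 21 nt against 39.8% and 28.9% of 24 nt against 30.5%. Two-strand loci without size call were the nearest above their share in each accession. The values were 12.1% against 5.34% in Wa8730, 10.8% against 7.71% in Lj8627, 21.3% against 15.3% in Sp9509 and 11.1% against 9.34% in Lg7742a. This was not particular to them, as 23 nt loci were also above their share in each accession. Those values were 2.83% against 1.28% in Wa8730, 7.79% against 7.58% in Lj8627, 6.76% against 4.05% in Sp9509 and 7.64% against 7.16% in Lg7742a. Loci of 24 nt were below their share in each. The median distance also reflects how many loci a list holds.

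The chromosomes of Lj8627 form an M and a T set, read within the same libraries. No-call single-strand loci were more numerous on M, with 2073 against 1573 on T, a ratio of 1.32 (95% interval 1.23 to 1.41). In 19 of 21 chromosome pairs M had more. All nuclear loci leaned further, at 15872 for M against 9081 for T, or 1.75 times as many (1.70 to 1.79). The no-call single-strand loci were thus 13.06% of the loci on M and 17.3% of those on T, a smaller share on M. T was higher for chromosome 13, with 89 loci on M and 111 on T including the run of 43, and for chromosome 20, with 41 on M and 61 on T. Per Mb spanned M was higher for both, at 6.16 against 5.47 for chromosome 13 and 4.23 against 3.80 for chromosome 20. The ratio depended on depth. It was 1.43 for loci with fewer than 10 reads, 1.18 (1.07 to 1.31) for those with at least 10, and 1.06 (0.860 to 1.30) for those with at least 100. For all nuclear loci with at least 10 reads it was 1.02 (0.971 to 1.07). Other classes lay on both sides. The ratio was 2.33 (2.09 to 2.58) for two-strand loci without size call, and for single-strand loci 2.84 at 24 nt, 2.49 at 23 nt, 1.09 at 21 nt and 0.578 at 22 nt, where T had more.

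Reads went the other way. M chromosomes held 113496 reads in these loci and T chromosomes 157090, a ratio of 0.722. Without the 10 deepest loci, 4 of them on chromosome 17T, M held 96418 reads and T 89660, so the direction of the read ratio rested on those loci. Median reads per locus were 8 on M and 9 on T, and loci over 600 bp were 12.98% of the loci on M and 12.8% on T. Per Mb spanned there were 6.15 loci on M and 3.79 on T. The placement of reads that match both sets was part of the authors' alignment, whose settings are not known here.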

How the data were processed

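Small RNA libraries from whole fronds, 3 per accession, were made and sequenced by the submitters, and fastp 0.20.1 and deepTools appear in the submitters' processing notes with no role given. Per the deposited files, ShortStack called loci once per accession over its pooled replicates, on assembly asm3v1 for Sp9509 and asm202106v1 for the other accessions. The deposited value was the read count per locus, with no normalization by the authors. Settings of the alignment and of the calls of loci, strand and size were not given in the sources used here. Among the loci taken, the lowest count was 3 reads in both Lemna accessions, 4 in Wa8730 and 5 in Sp9509.

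Mature and star lines were left out. Windows of 100 kb ran from the first base of a chromosome, with a locus placed by its midpoint. Shares have 95% Wilson intervals and ratios the matching binomial interval; reads carry no molecular identifiers and loci are not replicates, so these cover counting error only. Named were the 5 deepest loci and the longest of each accession, the 3 fullest windows in one orientation and the longest chain. Any other locus, run or window was named after its values were seen, whether or not it is marked so above. Loci and measures were chosen with earlier results of these data known. Python 3.11.15, pandas 2.3.3, numpy 2.4.6, scipy 1.17.1 and matplotlib 3.10.9 were used. On 4 of 4 simulated lists the planted loci and run were recovered.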

Additional observations from a re-analysis of the deposited data

Results flagged for a closer look

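Single-strand loci without size call also occurred off the numbered chromosomes, in parts of the lists that the report does not use. On the chloroplast sequence 30 such loci held 40591 reads in Sp9509, 45 held 24430 in Lj8627, 36 held 22592 in Wa8730 and 36 held 10190 in Lg7742a. On the mitochondrial sequence they held 2057 reads in Lj8627, 1747 in Sp9509, 32 in Wa8730 and 734 in Lg7742a. Scaffolds held 20174 reads in 14 such loci of Lg7742a, 7884 in 229 loci of Lj8627 and 1797 in 34 loci of Wa8730, and no scaffold is listed in Sp9509. Chloroplast loci thus held 0.0903 times the reads of the nuclear loci in Lj8627, 0.0724 times in Wa8730, 0.0602 times in Sp9509 and 0.0242 times in Lg7742a. There were no control samples. Whether chromosomes hold copies of these sequences was not tested.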

How the results depend on the processing

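No paired analysis was possible because each list sums the 3 replicates of its accession, and for that reason neither a replicate block nor leaving out a replicate could be run. Leaving out the longest chain or the 10 deepest loci was chosen after seeing the data. Of 126 alternative values, 60 stayed within the interval or 1.5 times the count, 63 moved and 3 reversed. Changes under a minimum, subset or denominator come from the choice of loci counted. Values below are in the order Lg7742a, Lj8627, Sp9509, Wa8730 unless named. At least 100 reads left 269, 362, 373 and 357 loci. At least 10 reads left 1205 in Lg7742a, 1594 in Lj8627 and 1544 in Wa8730, and at least 10 scaled reads 1205, 1487, 1406 and 1374. With at least 10 reads the share of loci was 35.3%, 22.6%, 35.2% and 5.33%, so Sp9509 no longer led Lg7742a; of nuclear loci outside hairpins it was 14.7% in Lj8627 and 40.2% in Sp9509. Outside hairpins the share of reads was 40.5%, 23.9%, 30.7% and 23.0%, with organelles and scaffolds also left out 42.4%, 25.3%, 31.6% and 23.6%, and without the deepest locus 7.40%, 4.63%, 7.79% and 5.20% of all reads. The deepest locus held 13.1%, 8.10%, 18.3% and 6.18% of the reads of these loci, the deepest 1% of loci 65.1%, 46.7%, 63.8% and 52.4%, and the 10 deepest after the first 40.5%, 26.2%, 39.0% and 37.3%. The share of loci in dense windows was 7.39% in Lg7742a with at least 10 reads. In Lj8627 it was 1.78% with 200 kb windows, 2.72% with at least 5 loci, 1.61% with at least 5 reads and 2.70% with at least 10 reads. In Sp9509 it was 1.51% with 200 kb windows and with windows shifted by 50 kb, 4.19% with at least 5 loci, 2.00% with 80% on one strand and 0% with 100%. In Wa8730 it was 6.65% with at least 5 loci. Chains took in 5.79% of the loci of Wa8730 with gaps under 5 kb and 5.29% of those of Sp9509 with gaps under 20 kb; without the longest chain they took in 1.52%, 1.08%, 3.37% and 4.76%. The M to T ratio was 1.62 per Mb, 1.18 with at least 10 reads, 0.722 in reads and 1.08 in reads without the 10 deepest loci; with each of 21 chromosome pairs left out it ran from 1.30 to 1.36. Without the 10 deepest loci the ratio of plus to minus reads was 0.647, 0.936, 1.22 and 1.26, against 0.982, 0.798, 0.515 and 0.594 with them, and so reversed in Sp9509 and Wa8730. What total library depth limits was not measured.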
